A study of Homo sapiens with 12 samples.

Results

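The 10 genes described here encode enzymes that make serine, glycine, asparagine and cysteine, carry one-carbon units in mitochondria, or make phosphoenolpyruvate there: PHGDH, PSAT1, PSPH, SHMT2, MTHFD2, ALDH1L2, ASNS, CTH, CBS and PCK2. They were taken by symbol from the 21574 features of the deposited table, as enzymes under control of the transcription factor ATF4, and were chosen by their TPM in TMEM216 and Ctrl cells, which earlier results of these data had shown. All 10 had a row, and 8 passed the filter on low values. Values of that contrast are therefore a description: calls from the fit across all features are counted beside the share of all features called, and nothing about the members is supported with them.

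The cells were MDA-231-LM2, a subline of the breast cancer cell line MDA-MB-231 with a high rate of lung metastasis. There were 12 RNA-seq libraries in 4 groups of 3, labelled TMEM216+IGF1, TMEM216, Ctrl+IGF1 and Ctrl: cells labelled TMEM216 given IGF1, the same cells without it, cells labelled Ctrl given IGF1, and Ctrl cells without it. TMEM216 is a transmembrane protein found at the base of cilia, and IGF1 is a growth factor that binds the receptor IGF1R. The labels do not say how the TMEM216 cells were made, whether either population is a single clone, what dose or duration of IGF1 was used, or whether replicates are separate cultures. The p-values thus refer to the variation among these libraries alone, and that variation may be technical.

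Cells make serine from a glycolytic intermediate in 3 steps run by PHGDH, PSAT1 and PSPH. Serine then gives glycine and one-carbon units to folate, cysteine through the transsulfuration pathway, and lipids and proteins. ATF4, which is translated more when amino acids are short or the endoplasmic reticulum is stressed, is known to raise transcription of many of these genes through composite sites that it binds together with C/EBP proteins. In breast cancer, PHGDH is known for copy number gain in a subset of tumours, and serine synthesis is linked to growth at metastatic sites.

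To show the promoters of the members that differed most between the populations among those with an entry, the 200 bases before the RefSeq start (GRCh38.p14 table) are printed 5′ to 3′ on the gene's strand for ASNS (chr7:97872409-97872608, minus strand), CTH (chr1:70411068-70411267, plus strand) and PCK2 (chr14:24094111-24094310, plus strand). Capitals mark the letters TGATGNAA, the form of the composite C/EBP and ATF site, which was searched on both strands and did not overlap another motif searched.
ASNS: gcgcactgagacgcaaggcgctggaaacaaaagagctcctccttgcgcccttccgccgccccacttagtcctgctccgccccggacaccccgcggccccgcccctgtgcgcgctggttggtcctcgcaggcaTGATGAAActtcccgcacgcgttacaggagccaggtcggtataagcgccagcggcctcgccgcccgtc
CTH: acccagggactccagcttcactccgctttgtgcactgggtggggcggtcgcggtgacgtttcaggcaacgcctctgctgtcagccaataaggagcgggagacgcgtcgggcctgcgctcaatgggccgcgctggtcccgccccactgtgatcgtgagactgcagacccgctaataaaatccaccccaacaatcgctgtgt
PCK2: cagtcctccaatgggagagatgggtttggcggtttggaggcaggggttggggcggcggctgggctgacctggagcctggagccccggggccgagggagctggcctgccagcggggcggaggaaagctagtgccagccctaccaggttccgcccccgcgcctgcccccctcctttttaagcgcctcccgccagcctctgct
Of the 10 members, 7 had an entry, and PSPH, SHMT2 and ALDH1L2 did not. The motif was found in 1 of these 7, in the first of the ASNS entries, where it ran from 68 to 61 bases before the start. Among all 35116 windows of 300 bases in the table, which run to 50 bases past the start, 1270 held it (3.62%). This share is per window, while a member counted if any of its entries held the motif. ASNS and CBS had more than 1 entry, so the units differ. With C in place of the N it was in 0 of the 7 members and in 304 windows (0.866%). A match describes letters only, and no match says only that these letters are not in the window.

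Expression was deposited as TPM, a share of all transcripts per library, which allows for transcript length and so lets levels be compared between genes. Differences are given on the log2(TPM + 1) scale with the standard error (SE) from limma, and a feature was called at an adjusted p (Benjamini-Hochberg, 13071 features) under 0.05. TPM keeps no read number, so the depth is unknown. In bulk RNA a lower level can mean less RNA per cell or fewer cells that make it, and these cannot be told apart.

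The 3 enzymes of serine synthesis were lower in TMEM216 cells, and PSPH, the last, differed most. PHGDH, which oxidises 3-phosphoglycerate in the first step, had 59.3, 60.3 and 64.8 TPM in TMEM216+IGF1 libraries, against 75.4, 78.3 and 76.9 TPM in Ctrl+IGF1 libraries. Without IGF1 it had 67.5, 70.1 and 69.2 TPM in TMEM216 libraries, against 83.8, 88.4 and 83.1 TPM in Ctrl libraries. Every TMEM216 library was below every Ctrl library, and with IGF1 each population was lower than without it. The log2 differences of PHGDH, TMEM216 minus Ctrl, were -0.32 with IGF1 and -0.30 without (SE 0.064 each).

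PSAT1, the aminotransferase of the next step, was the most abundant of the 3. It had 186, 194 and 179.9 TPM in TMEM216+IGF1 libraries, against 239, 263 and 226 TPM in Ctrl+IGF1 libraries. Without added IGF1 it had 196, 209 and 206 TPM in TMEM216 libraries, against 294, 293 and 284 TPM in Ctrl libraries. The populations did not overlap, and the log2 differences were -0.37 with IGF1 and -0.51 without (SE 0.068 each).

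PSPH, the phosphatase that releases free serine, had 28.2, 27.6 and 29.05 TPM in TMEM216+IGF1 libraries, against 39.5, 43.3 and 41.1 TPM in Ctrl+IGF1 libraries. In the absence of IGF1 it had 21.6, 25.7 and 27.7 TPM in TMEM216 libraries, against 47.5, 43.8 and 50.8 TPM in Ctrl libraries. No libraries of the 2 populations overlapped. The log2 difference was -0.53 with IGF1 and -0.90 without (SE 0.096 each). Relative to PHGDH in the same library, PSPH stood at 0.460 ± 0.0133 (SD, n = 3) in TMEM216+IGF1 and 0.363 ± 0.0406 in TMEM216 cells, against 0.537 ± 0.0147 in Ctrl+IGF1 and 0.558 ± 0.0582 in Ctrl cells. The PSAT1 to PHGDH ratio ranged from 2.78 to 3.22 in TMEM216+IGF1 and from 2.93 to 3.36 in Ctrl+IGF1 libraries, which overlapped. Without IGF1 it ranged from 2.90 to 2.98 in TMEM216 and from 3.32 to 3.51 in Ctrl libraries, which did not.

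The mitochondrial one-carbon enzymes SHMT2 and MTHFD2 were lower on average in TMEM216 cells, and they were the tested members not called in either comparison of the populations. SHMT2, which splits serine into glycine and a one-carbon unit, was the most abundant member, with 98.7% of all features below it in Ctrl cells. It had 369, 386 and 368 TPM in TMEM216+IGF1 libraries, against 460.2, 476 and 392 TPM in Ctrl+IGF1 libraries. Without IGF1 it had 318, 399.9 and 412 TPM in TMEM216 libraries, against 471, 502 and 485 TPM in Ctrl libraries. Within each IGF1 condition the populations did not overlap. The log2 differences were -0.24 with IGF1 and -0.38 without (SE 0.10 each), and neither was called.

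MTHFD2, the dehydrogenase and cyclohydrolase that oxidises the folate-bound unit, had 45.4, 48.9 and 64.6 TPM in TMEM216+IGF1 libraries, against 80.3, 67.5 and 57.1 TPM in Ctrl+IGF1 libraries. Without added IGF1 it had 37.9, 52.4 and 51.7 TPM in TMEM216 libraries, against 65.1, 77.8 and 75.2 TPM in Ctrl libraries. With IGF1 the 2 populations overlapped, and without it they did not. The log2 differences were -0.36 with IGF1 and -0.62 without (SE 0.16 each), and neither was called.

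ALDH1L2, which releases the unit as carbon dioxide and forms NADPH, lay between 0.0420 and 0.312 TPM in all 12 libraries and did not reach the filter. It averaged 0.0933 ± 0.0243 TPM in TMEM216+IGF1, 0.204 ± 0.0930 TPM in TMEM216, 0.154 ± 0.108 TPM in Ctrl+IGF1 and 0.241 ± 0.0214 TPM in Ctrl cells (SD, n = 3 each), and the groups with IGF1 overlapped, as did those without. Its gene overlaps NOPCHAP1 on the opposite strand (2.32 to 20.0 TPM), and no source used here says whether the libraries kept strand.

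ASNS, which makes asparagine from aspartate with glutamine as the nitrogen donor, was among the members with the largest differences. It had 45.8, 41.4 and 44.0 TPM in TMEM216+IGF1 libraries, against 87.1, 93.0 and 81.1 TPM in Ctrl+IGF1 libraries. In the absence of IGF1 it had 55.2, 58.4 and 56.7 TPM in TMEM216 libraries, against 109, 116 and 105 TPM in Ctrl libraries. The 4 groups did not overlap anywhere. The log2 differences were -0.98 with IGF1 and -0.94 without (SE 0.075 each), or 0.508 and 0.520 times Ctrl on the TPM + 1 scale. The order of ASNS and PHGDH turned round between the populations: the ASNS to PHGDH ratio was 0.712 ± 0.0514 in TMEM216+IGF1 and 0.824 ± 0.00846 in TMEM216 cells, against 1.13 ± 0.0684 in Ctrl+IGF1 and 1.29 ± 0.0261 in Ctrl cells (SD, n = 3 each).

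CTH, which frees cysteine from cystathionine, had the largest log2 difference of the members tested. It had 6.85, 5.64 and 6.04 TPM in TMEM216+IGF1 libraries, against 16.3, 19.4 and 13.8 TPM in Ctrl+IGF1 libraries. Without IGF1 it had 6.17, 6.76 and 5.84 TPM in TMEM216 libraries, against 16.1, 16.8 and 19.0 TPM in Ctrl libraries. All TMEM216 libraries were at 6.85 TPM or less and all Ctrl libraries at 13.8 TPM or more, whether IGF1 was present or not. The log2 differences were -1.28 with IGF1 and -1.33 without (SE 0.13 each), or 0.413 and 0.397 times Ctrl on the TPM + 1 scale. CBS, which makes cystathionine in the preceding step, was listed at 0 in all 12 libraries. CBS has a near-identical copy in the reference, CBSL, for which no row was analysed here, so nothing is read from the listed 0.

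PCK2, the mitochondrial enzyme that makes phosphoenolpyruvate from oxaloacetate, had 18.3, 18.3 and 18.5 TPM in TMEM216+IGF1 libraries, against 36.5, 41.2 and 38.6 TPM in Ctrl+IGF1 libraries. Without added IGF1 it had 19.8, 21.5 and 19.8 TPM in TMEM216 libraries, against 47.2, 44.8 and 48.4 TPM in Ctrl libraries. The 4 groups were again apart from each other. The log2 differences were -1.03 with IGF1 and -1.16 without (SE 0.075 each), or 0.488 and 0.447 times Ctrl on the TPM + 1 scale. PCK2 overlaps NRL on the opposite strand, which had 0.523 to 1.40 TPM.

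**Figure D1:**
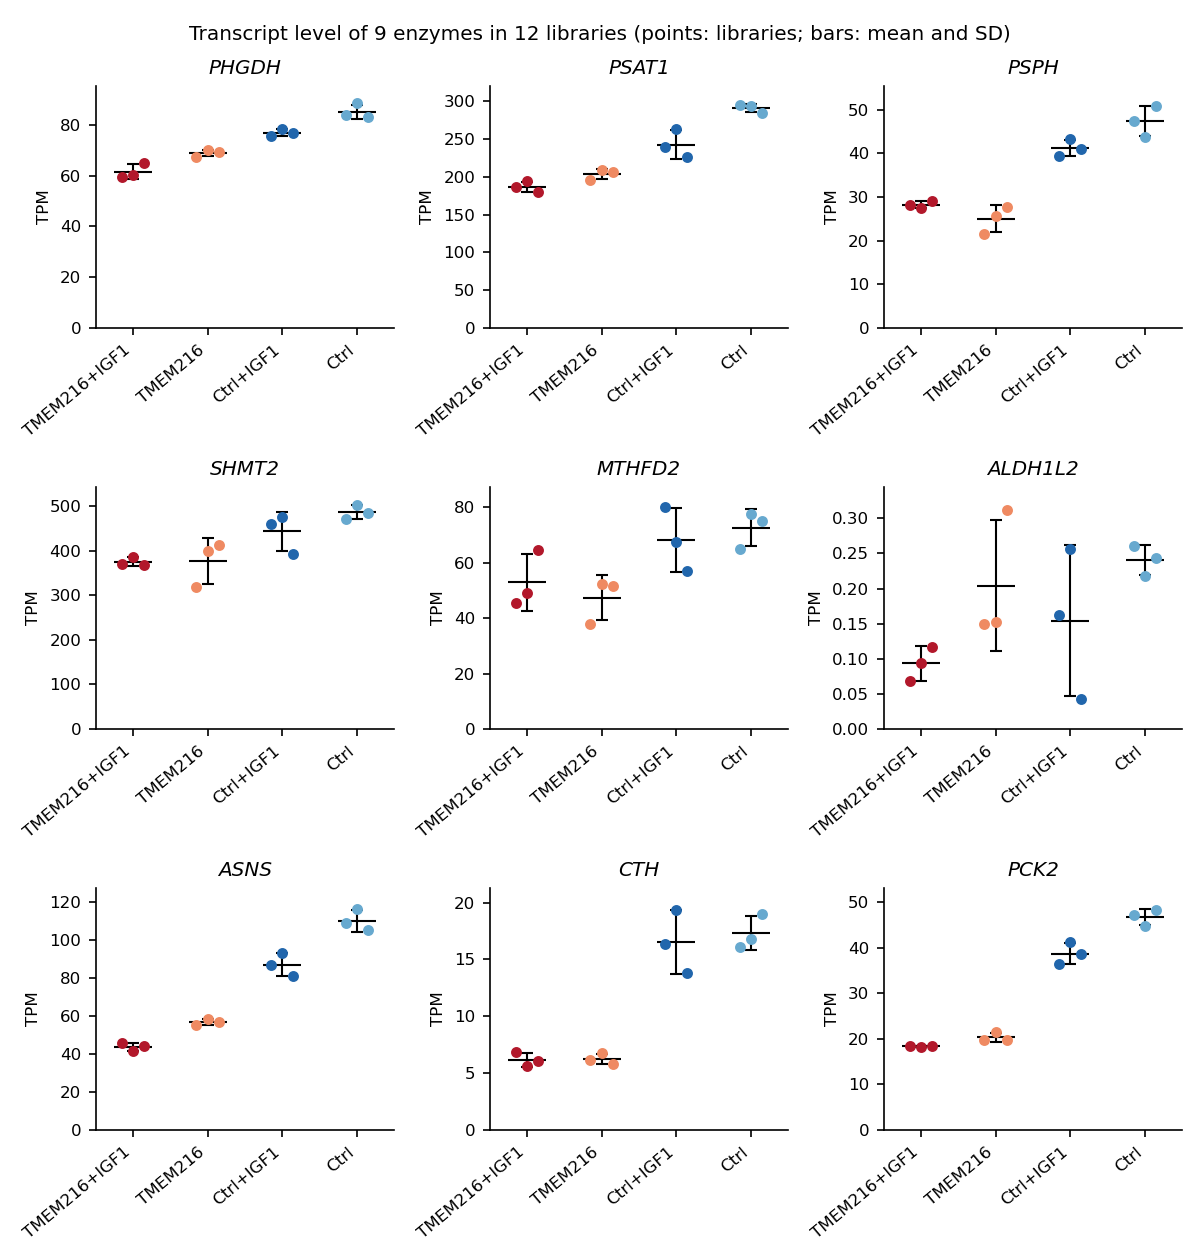
TPM (vertical axis) of 9 members in each of the 12 libraries, by group (horizontal axis); points are libraries, and bars are the mean and SD of 3. ASNS, PSAT1, PHGDH and PCK2 are separate in all 4 groups, while MTHFD2 overlaps between TMEM216+IGF1 and Ctrl+IGF1.

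**Figure D2:**
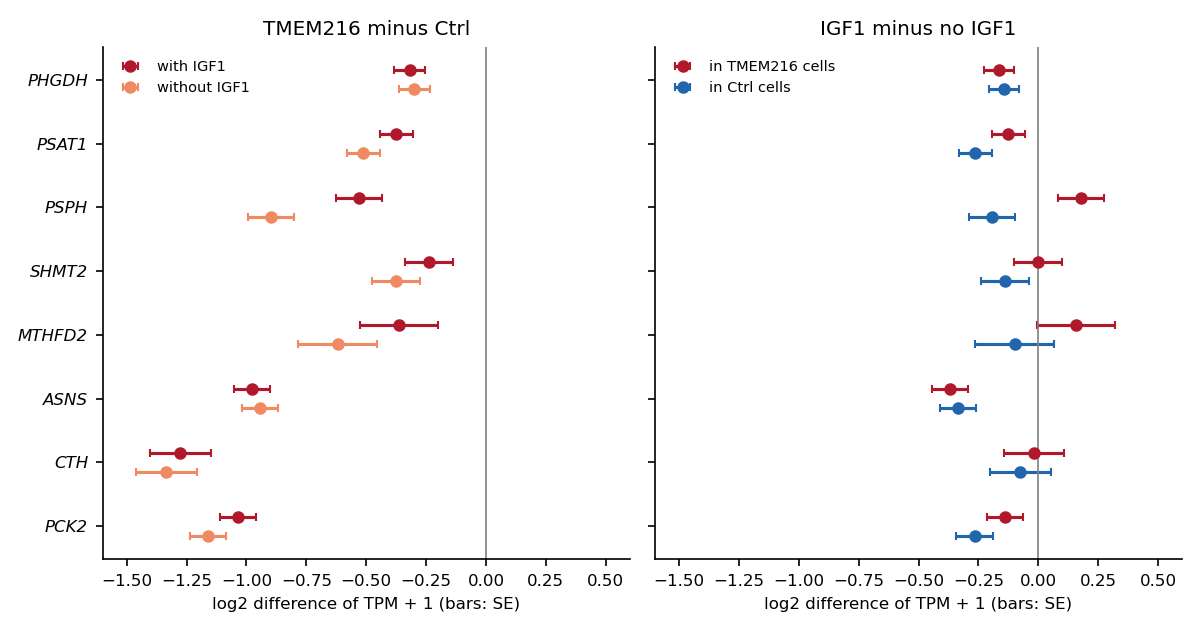
Log2 difference on the log2(TPM + 1) scale with its SE for the 8 tested members; the left panel shows TMEM216 minus Ctrl with and without IGF1, and the right panel IGF1 minus none in TMEM216 and in Ctrl cells. On the left every value is below 0, with CTH the farthest (-1.28 and -1.33), and on the right ASNS is the farthest below 0 (-0.37 and -0.34).

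The plot of levels by library and the plot of log2 differences show these values together. In TMEM216 against Ctrl cells, 6 of the 8 tested members were called lower with IGF1, where 0.696% of all features were called lower, and 6 of 8 without IGF1, where 0.941% were. SHMT2 and MTHFD2 were the exceptions in both. The libraries of the 2 populations did not overlap, with TMEM216 lower, for 7 of 8 members with IGF1 (7.69% of all features) and 8 of 8 without it (15.5%). All 6 TMEM216 libraries were below all 6 Ctrl libraries for 6 of 8 members, again without SHMT2 and MTHFD2, against 2.42% of all features. The median difference of the 8 was -0.45 with IGF1 and -0.76 without, against 0.048 and -0.048 over all features. Since this contrast chose the members, nothing is read from these counts. The values with and without IGF1 come from separate libraries and share none.

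Some of these calls were lost when a single library was left out, also where that library was in neither group compared. The 4 groups share an estimate of the spread, so every library bears on each adjusted p. The PHGDH call with IGF1 was lost on leaving out any one of the 3 Ctrl libraries, Ctrl+IGF1 replicate 1, TMEM216 replicate 2, or TMEM216+IGF1 replicate 1 or 2, and its call without IGF1 held when Ctrl+IGF1 replicate 2 or 3 was the library left out and in no other such fit. With IGF1 the PSPH call was lost without Ctrl+IGF1 replicate 1 or any one TMEM216+IGF1 library, and the PSAT1 call without replicate 1 of Ctrl+IGF1, or replicate 1 or 3 of TMEM216+IGF1. The log2 differences over these fits ranged from -0.36 to -0.29 for PHGDH, from -0.56 to -0.50 for PSPH and from -0.43 to -0.32 for PSAT1, all with IGF1. The calls of ASNS, CTH and PCK2 held in all 12 such fits in both comparisons.

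Ctrl+IGF1 replicate 3 and TMEM216 replicate 1 stood apart from the other libraries on the first principal component (22% of the variance, scores -31.0 and -19.4, against -8.44 to 18.2). SHMT2 was lowest in its group in exactly these 2 libraries, and so was MTHFD2. With both left out, a choice made after seeing the data, SHMT2 was called lower in TMEM216 cells with IGF1 (log2 difference -0.32) and without it (-0.26), and MTHFD2 was called in neither. TMEM216 transcript was at 163 to 250 TPM in the 6 libraries labelled TMEM216 and at 24.0 to 30.1 TPM in the 6 labelled Ctrl. The mesenchymal marker VIM was at 5755 TPM or more in every library. Of the markers listed beforehand as low in such cells, ESR1, PGR and CDH1 were at 0.204 TPM or less. ERBB2 and EPCAM, on the same list, were higher, at 31.7 to 42.9 TPM and 11.9 to 15.7 TPM. The summed TPM of 11 markers of other cell types was 6.20 to 6.69 in TMEM216+IGF1, 4.39 to 6.88 in TMEM216, 3.59 to 4.24 in Ctrl+IGF1 and 3.88 to 4.93 in Ctrl libraries. The T cell and adipocyte markers CD3E and ADIPOQ were listed at 0 in all 12, and 3 of the 11 were tested. PECAM1, an endothelial marker, was called higher with IGF1 (1.83 TPM in TMEM216+IGF1, 0.766 TPM in Ctrl+IGF1). The part of these markers in the members' differences was not tested.

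The IGF1 contrasts are not the one that chose the members, and their limma tests are given. They use the same libraries as that contrast, so they are not independent of the choice. The counts below are therefore a description too. In TMEM216 cells, 0 of the 8 were called for IGF1 by limma (0.0153% of all features were called, all lower). At an unadjusted p under 0.05, ASNS and PHGDH were lower, 2 of 8 against 1.7% of all features. ASNS averaged 43.7 ± 2.24 TPM in TMEM216+IGF1 and 56.8 ± 1.61 TPM in TMEM216 cells (SD, n = 3 each), a log2 difference of -0.37 (SE 0.075, limma adjusted p = 0.343). Its libraries did not overlap, and neither did those of PSAT1, PHGDH and PCK2, 4 of 8 members lower without overlap against 3.69% of all features. The median over the 8 was -0.071, against 0.018 over all features.

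In Ctrl cells, 0 of the 8 were called for IGF1 by limma (0.0306% of all features). ASNS, PSAT1, PHGDH and PCK2 were lower at an unadjusted p under 0.05, 4 of 8 against 5.67% of all features. ASNS averaged 87.1 ± 5.91 TPM in Ctrl+IGF1 and 110.1 ± 5.74 TPM in Ctrl cells (SD, n = 3 each), a log2 difference of -0.34 (SE 0.075, limma adjusted p = 0.506). PCK2 averaged 38.8 ± 2.36 TPM in Ctrl+IGF1 and 46.8 ± 1.85 TPM in Ctrl cells (log2 difference -0.27). These 4 genes and PSPH did not overlap between Ctrl+IGF1 and Ctrl libraries, 5 of 8 against 11.8% of all features. The median over the 8 was -0.17, against -0.088 over all features. Quantile normalization moved the median over all features to -0.0087, and median-of-ratios scaling moved it to -0.0065. With the latter the median of the 8 was -0.081. Over all alternative fits ASNS ranged from -0.384 to -0.248 and PSAT1 from -0.322 to -0.174. PCK2 ranged from -0.31 to -0.179 and PHGDH from -0.161 to -0.056.

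Averaged over both populations, a contrast added after seeing the data, ASNS was the only member called, and fell with IGF1 (log2 difference -0.35, SE 0.053, limma adjusted p = 0.0426). It was 1 of 7 features called (0.0536%, all lower), and its level was lower with IGF1 in every library of either population. The call held on leaving out Ctrl+IGF1 replicate 2 or 3 and was lost on leaving out any other library, with adjusted p from 0.0354 to 0.179 and a log2 difference from -0.38 to -0.33. The 3 others lower at an unadjusted p under 0.05 were PCK2 (-0.20, limma adjusted p = 0.431), PSAT1 (-0.19, adjusted p = 0.379) and PHGDH (-0.15, adjusted p = 0.596), so 4 of 8 members against 4.19% of all features. The other 4 had values between -0.070 (SHMT2) and 0.030 (MTHFD2).

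Whether the difference between TMEM216 and Ctrl cells changed with IGF1 was tested as an interaction, and 0 of the 8 members were called by limma (0.0153% of all features). PSPH had the only unadjusted p under 0.05, 1 of 8 against 5.38% of all features. Its TMEM216 minus Ctrl difference was 0.37 higher on the log2 scale with IGF1 than without (SE 0.14, limma adjusted p = 0.754). PSPH averaged 28.3 ± 0.728 TPM in TMEM216+IGF1 and 25.0 ± 3.13 TPM in TMEM216 cells, and 41.3 ± 1.90 TPM in Ctrl+IGF1 and 47.4 ± 3.48 TPM in Ctrl cells (SD, n = 3 each). The median interaction of the members was 0.13, against 0.11 over all features. Quantile normalization moved the median over all features to 0.011 and median-of-ratios scaling moved it to 0.0052.

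The 4 groups of ASNS, PSAT1, PHGDH and PCK2 did not overlap and ran in 1 order, TMEM216+IGF1, TMEM216, Ctrl+IGF1 and Ctrl, from low to high. This order was noticed after the values were seen, and its population step is what chose the members. Of all 13071 features 9 were ordered in this way (0.0689%), the other 5 being ANKRD1, EDN1, EGR1, FOSB and PEA15. With quantile normalization 3 members kept it (ASNS, PSAT1 and PCK2), and with median-of-ratios scaling 2 did (ASNS and PSAT1). CTH showed the population step alone, with overlap between its libraries with and without IGF1 in each population.

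SHMT2, MTHFD2, ALDH1L2 and PCK2 act in mitochondria, and each has a relative outside them. SHMT1, the cytosolic serine hydroxymethyltransferase, lay between 44.98 and 56.6 TPM in all 12 libraries, with a TMEM216 minus Ctrl log2 difference of 0.11 with IGF1 and 0.063 without (SE 0.085 each), neither called. The SHMT2 to SHMT1 ratio was 7.19 ± 0.610 in TMEM216+IGF1 and 6.98 ± 0.667 in TMEM216 cells, against 9.18 ± 0.675 in Ctrl+IGF1 and 9.45 ± 0.249 in Ctrl cells (SD, n = 3 each). The 6 TMEM216 libraries, at 6.24 to 7.66, were all below the 6 Ctrl libraries, at 8.72 to 9.96, including those that stood apart. SHMT2 itself did not separate the 6 from the 6, at 318 to 412 TPM in TMEM216 and 392 to 502 TPM in Ctrl libraries. How often ratios of other genes separate in this way was not counted. Since this contrast chose SHMT2, nothing is read from the separation of the ratio.

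MTHFD1, the cytosolic enzyme that joins 3 folate activities, lay between 146 and 200.4 TPM, and was not called (log2 difference 0.087 with IGF1 and -0.085 without). With both libraries that stood apart left out, its value with IGF1 was -0.030. The MTHFD2 to MTHFD1 ratio was 0.290 ± 0.0554 in TMEM216+IGF1 and 0.262 ± 0.0347 in TMEM216 cells, against 0.396 ± 0.0624 in Ctrl+IGF1 and 0.382 ± 0.0427 in Ctrl cells (SD, n = 3 each). With IGF1 these ratios overlapped, and without it they did not. ALDH1L1, the cytosolic relative of ALDH1L2, was also below 1 TPM in every library (0.101 to 0.566 TPM, against 0.0420 to 0.312 TPM for ALDH1L2), and PCK1, the cytosolic relative of PCK2, was listed at 0 in every library. A ratio shows unequal levels and not which enzyme changed.

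**Figure D3:**
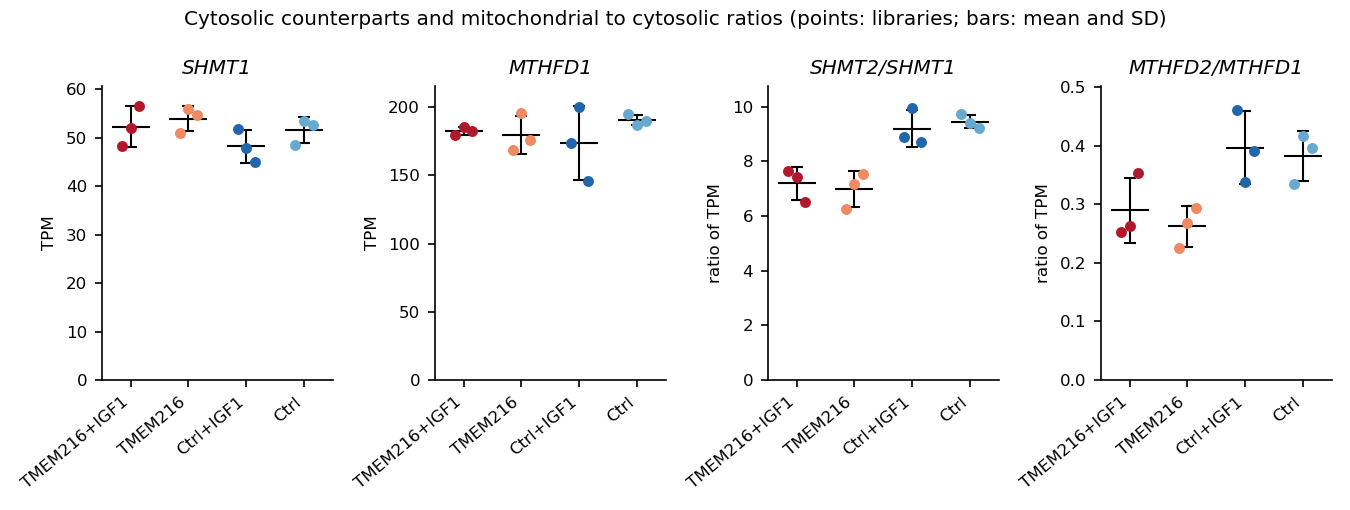
TPM of the cytosolic enzymes SHMT1 and MTHFD1 and the TPM ratios SHMT2/SHMT1 and MTHFD2/MTHFD1 (vertical axes) by group (horizontal axis); points are libraries, and bars are the mean and SD of 3. The SHMT2/SHMT1 ratio is 6.24 to 7.66 in the TMEM216 libraries and 8.72 to 9.96 in the Ctrl libraries, while SHMT1 lies at 44.98 to 56.6 TPM throughout.

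Other genes of the same pathways were counted from lists that were likewise drawn up with earlier results known. Over all features, 0.918% were called higher and 0.696% lower in TMEM216 cells with IGF1, and 0.153% and 0.941% without. At an unadjusted p under 0.05 these shares were 9.98% and 5.85% with IGF1, and 3.17% and 10% without. Of 12 tested genes of serine and glycine use, 0 were called between TMEM216 and Ctrl cells, with IGF1 (1 lower at an unadjusted p under 0.05) or without (1 lower). Their medians were 0.14 with IGF1 and 0.039 without. The genes with the smallest unadjusted p over the contrasts were SDSL, a serine dehydratase relative (-0.31 without IGF1, adjusted p = 0.227), and, for IGF1 in Ctrl cells, SPTLC2, a subunit of the enzyme that starts sphingolipid synthesis from serine (-0.36), and AMT and GCSH of the glycine cleavage system (0.63 and 0.23, limma adjusted p = 0.673 for all 3).

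Of 16 other folate enzymes and carriers, 0 were called with IGF1 and 1 was higher without it (0.153% of all features). This was GGH, the hydrolase that trims folate polyglutamates, at 133 ± 14.7 TPM in TMEM216 and 93.2 ± 12.0 TPM in Ctrl cells (SD, n = 3 each; log2 difference 0.51, SE 0.10, limma adjusted p = 0.0416). The GGH call held without replicate 3 of Ctrl+IGF1 or replicate 3 of TMEM216, and was lost on leaving out any other library. With IGF1 its difference was 0.081 (adjusted p = 0.724). MTHFD2L, a mitochondrial relative of MTHFD2, had 0.30 without IGF1 (limma adjusted p = 0.249), and MTFMT, which formylates the mitochondrial initiator tRNA, had -0.24 with it (adjusted p = 0.326). The list's medians were 0.072 with IGF1 and -0.073 without.

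Of 14 other enzymes of the methionine cycle, transsulfuration and glutathione, 0 were called with IGF1 (4 higher and 1 lower at an unadjusted p under 0.05) and 0 without it (1 higher and 3 lower). Those unadjusted shares over all features were 9.98% higher and 5.85% lower with IGF1, and 3.17% and 10% without. With IGF1 the glutathione genes GCLM and GSR stood at 0.42 (limma adjusted p = 0.0627) and 0.43 (adjusted p = 0.0878), the sulfurtransferase TST at -0.26 (adjusted p = 0.109), and AHCY, which clears S-adenosylhomocysteine, at 0.23 (adjusted p = 0.156). The list's medians were 0.17 with IGF1 and -0.056 without. These 14 ranged from -0.26 to 0.43 with IGF1 and from -0.295 to 0.38 without. CTH was at -1.28 and -1.33, but this contrast chose it, so nothing is read from its place outside that range.

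Of 17 other genes of non-essential amino acid synthesis, 1 was lower with IGF1 (0.696% of all features) and 2 without (0.941%). GPT2, the mitochondrial alanine aminotransferase, had 16.3 ± 0.964 TPM in TMEM216+IGF1 and 28.3 ± 0.969 TPM in Ctrl+IGF1 cells (log2 difference -0.76, SE 0.079, limma adjusted p = 0.000495). In the absence of IGF1 it had 17.4 ± 1.08 TPM in TMEM216 and 30.8 ± 0.645 TPM in Ctrl cells (SD, n = 3 each; -0.79, SE 0.079, limma adjusted p = 0.000352). These calls held on leaving out any 1 library. PYCR1, which closes proline in mitochondria, was lower without IGF1 (-0.55, SE 0.11, limma adjusted p = 0.0289), a call lost on leaving out any Ctrl library, Ctrl+IGF1 replicate 1, or TMEM216 replicate 2 or 3. With IGF1 PYCR1 had -0.38 (adjusted p = 0.107), which passed without TMEM216+IGF1 replicate 3. ASS1, which makes argininosuccinate, had -0.60 without IGF1 (adjusted p = 0.125), and PYCR3, the cytosolic relative of PYCR1, had 0.27 with it (adjusted p = 0.2). The list's medians were 0.029 with IGF1 and -0.059 without.

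Of 11 partners of PCK2 around phosphoenolpyruvate and oxaloacetate, 0 were called with IGF1 (3 higher at an unadjusted p under 0.05) and 0 without (1 higher). Over all features the unadjusted share higher was 9.98% with IGF1 and 3.17% without. ME1, malic enzyme, had 0.47 with IGF1 (limma adjusted p = 0.0795), PKM, pyruvate kinase, 0.23 with it (adjusted p = 0.272), and MDH2, mitochondrial malate dehydrogenase, -0.21 without it (adjusted p = 0.384). PC, pyruvate carboxylase, had 0.30 for IGF1 in TMEM216 cells (adjusted p = 0.752). The list's medians were 0.15 with IGF1 and 0.012 without.

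The list of 11 regulators held ATF4, the kinases of eIF2 alpha, and partners and targets of ATF4. Of these 11, 3 were lower in TMEM216 cells with IGF1 (0.696% of all features) and 1 without (0.941%). TRIB3, a pseudokinase that binds ATF4, had 13.3 ± 0.410 TPM in TMEM216+IGF1 and 28.4 ± 1.03 TPM in Ctrl+IGF1 cells (SD, n = 3 each; log2 difference -1.04, SE 0.093, limma adjusted p = 0.000131). Without IGF1 it had 12.3 ± 1.47 TPM in TMEM216 and 27.6 ± 1.27 TPM in Ctrl cells (-1.11, SE 0.093, adjusted p = 8.72e-05), and both calls held on leaving out any 1 library. DDIT3, the C/EBP relative CHOP, was lower with IGF1 (-0.61, limma adjusted p = 0.0301), and so was PPP1R15A, which directs dephosphorylation of eIF2 alpha (-0.52, adjusted p = 0.0188). The DDIT3 call was lost without Ctrl replicate 3, Ctrl+IGF1 replicate 1 or 3, TMEM216 replicate 2 or any TMEM216+IGF1 library, and that of PPP1R15A without replicate 1 or 3 of Ctrl+IGF1, or replicate 1 or 2 of TMEM216+IGF1. The list's medians were -0.15 with IGF1 and -0.23 without. In these 6 lists 0 genes were called for IGF1 in either population or for the interaction.

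ATF4 transcript itself lay at 559 to 620.4 TPM in TMEM216+IGF1 and at 592 to 623 TPM in TMEM216 libraries, against 646 to 815 TPM in Ctrl+IGF1 and 738 to 746 TPM in Ctrl libraries. The populations did not overlap, but the log2 differences of -0.30 with IGF1 (SE 0.081, limma adjusted p = 0.0973) and -0.29 without (SE 0.081, adjusted p = 0.118) were not called. Both passed with quantile normalization, and the value with IGF1 passed without Ctrl+IGF1 replicate 2. The value without IGF1 passed when Ctrl+IGF1 replicate 3 was left out. It also passed, at -0.32, with both libraries that stood apart left out. ATF4 is controlled mainly by translation, which these libraries do not measure.

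**Figure D4:**
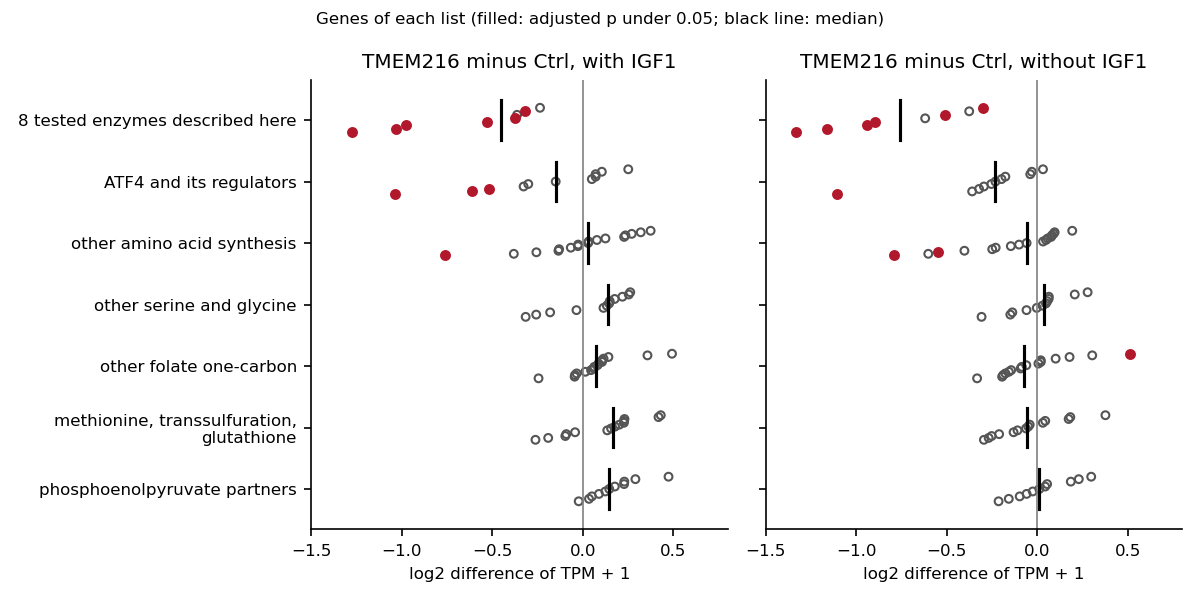
Log2 difference, TMEM216 minus Ctrl, of each tested gene (points) in the members and the 6 other lists, with IGF1 on the left and without on the right; filled points are called at a limma adjusted p under 0.05, and lines are medians. The members, which this contrast chose, lie between -1.28 and -0.24 on the left and between -1.33 and -0.30 on the right. The medians of the other lists lie between -0.23 and 0.17. Some genes of those lists lie within the members' range, such as TRIB3 (-1.04 and -1.11) and GPT2 (-0.76 and -0.79).

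The genes whose 4 group means followed the members' median profile most closely were LRATD2, ARHGEF5, SLC1A5, RBCK1 and ERFE. The profile is the median, over the 8 tested members, of each group's mean log2(TPM + 1) centred on the gene's own mean, at -0.28 in TMEM216+IGF1, -0.31 in TMEM216, 0.23 in Ctrl+IGF1 and 0.40 in Ctrl cells. Likeness was the root mean square difference over the 4 group means, which was 0.0202 for LRATD2, 0.0257 for ARHGEF5, 0.0308 for SLC1A5, 0.0408 for RBCK1 and 0.0417 for ERFE. SLC1A5 encodes a transporter of glutamine and other neutral amino acids.

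Copies in the reference limit some of these values. GENCODE v29 holds pseudogenes of ASNS (4), PSPH (1), PSAT1 (4) and MTHFD2 (7), none of which had a row, and how their reads were assigned is not stated. MTHFD2 also overlaps a gene listed by the identifier ENSG00000264324 on the opposite strand (0.0368 to 6.07 TPM).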

How the data were processed

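RNA-seq was made from 12 libraries of MDA-231-LM2 cells in 4 groups of 3. The authors deposited TPM for 21574 features. The submitters' processing notes name HISAT2, StringTie and RSEM, and per the labels' protocols libraries came from total RNA with an Illumina TruSeq kit. No source used here gives the build, annotation, versions or strandedness. TPM holds no depth, so no counting interval is given.

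The filter kept 13071 features that reached a TPM of 1 in no fewer than 3 libraries, and log2(TPM + 1) was fitted for the 4 groups together in limma 3.58.1 (R 4.3.3, with data.table at version 1.17.8) with a mean-variance trend. Tests are two-sided, and p-values were adjusted over the 13071 features with a threshold of 0.05. This scale shrinks the fold changes of low genes. ALDH1L2 and CBS were not tested. The contrast averaging IGF1 over both populations was added after seeing the data.

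The members, lists and tests were chosen with earlier results of these data known. The text names all members, up to 4 genes per list with the smallest p over the contrasts, the cytosolic relatives, ATF4, and the 5 genes nearest to the members' median profile. Tests on simulated data for TMEM216 against Ctrl without IGF1 (13071 features) recovered 44 of 50 rises and 43 of 50 falls of 1 on the log2 scale, and 21 of 50 rises and 24 of 50 falls of 0.5, with 5 false calls. Overlaps came from GENCODE 29. Python 3.11.15, pandas 2.3.3, numpy 2.4.6 and matplotlib 3.10.9 were used. The alternatives are listed with their effect after the report. Replicate numbers were not used to pair the libraries in the main fit. Some items that the rule names are not reported here.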

Additional observations from a re-analysis of the deposited data

How the results depend on the processing

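All 8 members kept a lower level in TMEM216 than in Ctrl cells in both comparisons under every alternative run: no filter or a minimum TPM of 5, a pseudocount of 0.1, median-of-ratios scaling or quantile normalization, a fit without the trend, a fit on the 6 libraries of a comparison (which has no interaction), the replicate block, each library left out, and, added after seeing the data, both outlying libraries left out. The cause of the changes below was not tested.

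Members called in TMEM216 against Ctrl cells were 5 to 6 without IGF1 and 3 to 6 with it over the fits leaving out 1 library, and 3 with IGF1 in the fit of 6 libraries. For IGF1 in either population and the interaction the count was 0 to 0, and for IGF1 averaged it was 0 to 1, and 0 without the trend, under the block and without both outlying libraries. Members' medians over those fits were -0.815 to -0.642, -0.53 to -0.43, -0.136 to -0.035, -0.211 to -0.152, 0.0706 to 0.184 (interaction) and -0.145 to -0.0906 (averaged). The interaction median was 0.0614 with quantile normalization, 0.0233 with median-of-ratios scaling and -0.0237 without both outlying libraries. Without these libraries the medians were -0.642 for TMEM216 without IGF1 and -0.136 for IGF1 in TMEM216 cells, and with median-of-ratios scaling the median for IGF1 in Ctrl cells was -0.0813. PHGDH without IGF1 lost its call with the pseudocount, both scalings, no trend, the fit of 6 libraries and the block. With IGF1 the PHGDH call was lost with 6 libraries and under the block, and those of PSPH and PSAT1 with 6 libraries.

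All features called, against 143 without IGF1, were 49 with 6 libraries, 77 under the block, 288 without both outlying libraries and 43 to 273 leaving out 1 library. Against 211 with IGF1 they were 49, 140 under the block, and 84 to 462. Higher calls were 14% of those without IGF1, 32.8% with quantile normalization and 31.2% with median-of-ratios scaling. For IGF1 in TMEM216 cells (2) they were 7 with the pseudocount, 4 at the higher minimum, 1 with no filter, median-of-ratios scaling, the block or without both libraries, and 1 to 6 leaving out 1. For IGF1 in Ctrl cells (4) they were 0 with the pseudocount or higher minimum, 2 with quantile normalization, 1 with no filter, 6 libraries or the block, and 1 to 5. For the interaction (2) they were 1 under the pseudocount, higher minimum, both scalings, the block and without both libraries, and 1 to 3. For IGF1 averaged (7) they were 1 under the block, 4 without both libraries, and 1 to 11. Among genes of the other lists, GGH without IGF1 lost its call with no filter, no trend, 6 libraries, the block and without both libraries. PYCR1 without IGF1 lost its call under both scalings, 6 libraries and the block. With IGF1 the DDIT3 call was lost with no filter, median-of-ratios scaling, 6 libraries, the block and without both libraries. That of PPP1R15A was lost with 6 libraries.

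Signs reversed for small differences. CTH for IGF1 in Ctrl cells was 0.0239 (quantile), 0.00879 (ratios) and 0.0419 (without both libraries), its interaction -0.0685, -0.0440 and -0.0665, and averaged 0.00868 without both. PSPH averaged was 0.0149 and 0.0248 under the scalings. Without both libraries MTHFD2 was 0.0226 for IGF1 in Ctrl cells and -0.0132 for the interaction, SHMT2 -0.0623 for the interaction, and MTHFD1 -0.0304 with IGF1. Leaving out 1 library, ranges crossing 0 were, for IGF1 in TMEM216 cells, SHMT2 -0.117 to 0.0693 and CTH -0.0832 to 0.0376, for IGF1 in Ctrl cells, MTHFD2 -0.22 to 0.0226 and CTH -0.191 to 0.0419, for the interaction, ASNS -0.0826 to 0.0144, PHGDH -0.057 to 0.00532 and CTH -0.0586 to 0.174, averaged, PSPH -0.0575 to 0.0292, MTHFD2 -0.0447 to 0.0903 and CTH -0.104 to 0.0126, and MTHFD1 with IGF1 -0.0304 to 0.196.

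Same-numbered replicates correlated at -0.286 to 0.165 in their deviations from the group means, 4 of 18 pairs over 0.1. Pairs with different numbers correlated at -0.274 to 0.278, 6 of 36 over 0.1. With 3 libraries per group this cannot tell whether the numbers pair the libraries. Ordered groups held for 2 members with median-of-ratios scaling, and the promoter motif with C for N for 0. CBS summed with CBSL was not run, since no CBSL row was analysed. Depth is unknown for these TPM, so how far it limits low genes such as ALDH1L2 cannot be given.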
